A study of Mus musculus with 36 samples.

Results

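Hepatic growth hormone signalling was followed through 10 genes: the receptor gene Ghr, the kinase gene Jak2, the transcription factor genes Stat5a and Stat5b, the secreted products Igf1 and Igfals, the feedback genes Socs2 and Cish, and the genes Bcl6 and Cux2, which encode repressors of sex-biased liver genes. They were chosen by symbol as a textbook pathway, with earlier results of these data known, and are 10 of the 49315 genes listed. Levels are in TPM, a share of the transcripts of a library that is corrected for gene length. In livers of mice on the steatohepatitis diet with vehicle, Ghr, Igf1 and Igfals were lower in both mutant genotypes than in controls. The synthetic agonist T0901317 lowered all 3 genes in controls, raised all 3 in heterozygotes, and raised Ghr and Igfals in homozygous mutants. Both rises in homozygous mutants fell short of the test threshold when 1 treated library was left out. The fall of Ghr in controls did so on omission of either of 2 libraries.

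Growth hormone from the pituitary binds GHR on hepatocytes, which activates the kinase JAK2. JAK2 phosphorylates STAT5A and STAT5B, which enter the nucleus and switch on genes such as Igf1, Igfals, Socs2 and Cish, and SOCS2 and CISH in turn damp the receptor. Male mice secrete the hormone in pulses and females more continuously, and the difference sets much of the sex bias of liver expression, with BCL6 as a repressor more abundant in males and CUX2 as one found mainly in females.

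Livers of 36 male mice, 11 to 12 weeks old, gave polyA RNA for sequencing, in 9 groups of 4 libraries. CRISPR editing had replaced tryptophan (W) 441 of the nuclear receptor LXRalpha (liver X receptor alpha, a sensor of oxidised cholesterol) by phenylalanine (F), and W/W stands for the control mice, W/F for heterozygotes and F/F for mice homozygous for the mutation. All 3 genotypes were kept on normal chow, on a high fat, high cholesterol diet that promotes metabolic dysfunction-associated steatohepatitis (MASH; Teklad TD.96121) for 4 weeks with vehicle, or on that diet with 10 mg/kg T0901317, an LXR agonist. Vehicle and agonist were given daily by gavage over the last 2 weeks. The labels name no driver that would restrict the mutation to 1 cell type, and the substitution itself cannot be read from TPM. The chow mice were an independent cohort with no gavage listed. Diet, gavage with vehicle, and cohort therefore cannot be told apart where vehicle is compared with chow, called the diet response below. The labels do not state in words that each library is a different animal, so p-values measure only the spread between these libraries.

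The libraries held 18.1 to 35.8 M reads, as recovered from the steps between low TPM. Differences below are fitted differences of log2(TPM + 1) by limma across the 16638 genes that reached 1 TPM in 4 or more libraries, with their standard error (SE) and a Benjamini-Hochberg adjusted p, called under 0.05. The median gene was itself displaced between groups, by 0.70 on the log2 scale between F/F and W/W on vehicle and by 0.52 between W/F and W/W, and 11538 genes were called higher and 1186 lower in the first of these. Each comparison was therefore repeated on TPM rescaled so that the median gene does not move, which gave 5208 higher and 4601 lower there. Hepatocyte markers (Alb, Apoa1, Ttr, Cps1, Tat, Hnf4a) summed to 63291 to 84474 TPM in W/W vehicle livers, 55056 to 63279 in W/F and 32798 to 35998 in F/F. Macrophage markers (Adgre1, Cd68, Csf1r, Clec4f, Lyz2, Cd5l) summed to 229 to 386 TPM in W/W vehicle livers, 2833 to 3622 in W/F and 3110 to 4049 in F/F. All these defining markers were above 0, and of the neutrophil markers Ly6g was at 0 in every library of W/F T0901317, W/F chow and W/W chow.

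On vehicle, the receptor and both secreted products fell in the mutants while the kinase and STAT5 transcripts rose on the deposited scale. Between F/F and W/W on vehicle, 7 of the 9 tested members differed: Ghr, Igf1 and Igfals were lower, against 7.13% of all tested genes, and Jak2, Stat5a, Stat5b and Socs2 were higher, against 69.3%. Between W/F and W/W on vehicle, the same 3 genes were lower, against 6.83% of all genes, and Jak2, Stat5a and Stat5b were higher, against 61.6%. The median of the 9 members was 0.67 in F/F and 0.53 in W/F, beside 0.70 and 0.52 over all tested genes. After rescaling, the 3 falls were called in both genotypes, where 27.7% of all genes were lower in F/F and 25.3% in W/F, and Jak2 was the 1 rise still called in each, where 31.3% and 27.8% were higher. Between F/F and W/F on vehicle, Ghr alone was called, lower in F/F, where 2.3% of all genes were lower and 19% higher.

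With T0901317, the 3 genes moved in opposite directions in W/W and W/F livers. Of the 3, Ghr and Igfals rose in F/F livers and Igf1 was not called. In W/W livers, Ghr, Igf1 and Igfals were lower than on vehicle and no member was higher, where 2.91% of all genes were lower and 7.87% higher. In W/F livers, the 3 genes were higher, against 6.59% of all genes, and Jak2, Stat5a and Stat5b were lower, against 59.3%. In F/F livers, Ghr and Igfals were higher, against 3.95%, and Jak2 and Stat5a were lower, against 31.2%. These 4 calls became 0 without F/F T0901317 replicate 3 and 2 without F/F vehicle replicate 3 or 4. The response of W/F differed from that of W/W in 6 members, with Ghr, Igf1 and Igfals responding upward relative to W/W, against 5.27% of all genes, and Jak2, Stat5a and Stat5b downward, against 53.2%. The response of F/F differed from that of W/W in Ghr, Igf1 and Igfals, each upward, against 3.29%, and in no member downward, against 27.2%. After rescaling, 0 members were called higher and 4 lower in control livers, where 8.05% of all genes were higher and 5.52% lower. In heterozygous livers 3 were higher and 2 lower, against 23.5% and 27.3%, so these counts of 9 are near the background. In homozygous livers 2 were higher and 0 lower, against 8.28% and 8.12%. The rescaled difference of response had 3 members upward and 1 downward in W/F, against 19.7% and 24.1%, and 3 and 0 in F/F, against 7.33% and 10.1%. The vehicle libraries are shared by these comparisons and those between genotypes on vehicle.

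Under T0901317, Igf1 and Igfals were higher in W/F than in W/W, where 3.65% of all genes were higher, and no member was lower, where 6.23% were. In F/F against W/W under the agonist, Jak2, Stat5a, Stat5b and Socs2 were higher, against 56.3%, and Ghr was lower, against 6.96%. In F/F against W/F under the agonist, the same 4 genes were higher, against 58.5%, and Ghr, Igf1 and Igfals were lower, against 4.08%. On chow, F/F livers had more Jak2, Stat5a and Socs2 than W/W livers, against 43% of all genes, and less Ghr, against 3.65%. Without F/F chow replicate 1, this comparison called 7 members rather than 4. Against W/F on chow, F/F livers had more of the same 3 transcripts, against 37.9%, and less Ghr, Igfals and Bcl6, against 3.43%. W/F and W/W livers on chow differed in no member by limma, and none had an unadjusted p under 0.05; of all genes, 0.198% were higher and 0.288% lower in W/F. After rescaling, 2 members were higher and 2 lower under T0901317 for F/F against W/W, where 24.4% and 22.4% of all genes were, and 0 and 3 for F/F against W/F, where 21.7% and 18.5% were. On chow the rescaled split was 1 and 3 for F/F against W/W, beside 16.1% and 13.8% of all genes, and 1 and 4 for F/F against W/F, beside 16.6% and 14.3%.

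Between the MASH diet with vehicle and chow, no member was called in W/W livers, where 2.59% of all genes were higher and 10.3% lower by limma, although 3 members had an unadjusted p under 0.05. In that comparison 1 call appeared without W/W chow replicate 1, 3 or 4 or W/W vehicle replicate 4. The voom fit of recovered reads called 0 members there too. In W/F livers, Jak2, Stat5a, Socs2 and Cish were higher on the diet, against 52.4% of all genes, and Ghr, Igf1, Igfals and Bcl6 were lower, against 8.53%. In F/F livers, Stat5a was higher, against 46.5%, and Ghr, Igf1 and Igfals were lower, against 9.27%. The diet response of W/F differed from that of W/W in Ghr, Igf1 and Igfals, each more negative, against 5.13% of all genes, and in Jak2, Stat5a and Stat5b, each more positive, against 49.5%. That of F/F differed in Ghr, Igf1 and Igfals, each more negative, against 4.54%, and in no member more positive, against 41.5%. After rescaling, no member was called higher and 5 lower on the diet in W/F, where 28% of all genes were higher and 26.8% lower, and 0 and 4 in F/F, where 25.9% and 21.1% were. Each rescaled difference of diet response had 0 members upward and 3 downward, against 21.1% and 18.9% of all genes in W/F and 14.7% and 12.2% in F/F.

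Ghr encodes the growth hormone receptor (ENSMUSG00000055737, GRCm38 chr15:3317760-3583492, minus strand). On vehicle its level was 111, 123, 114 and 135 TPM in the 4 W/W livers, 56.0, 59.2, 48.0 and 47.5 TPM in W/F, and 41.0, 38.6, 35.6 and 36.9 TPM in F/F. Every mutant liver lay below every control, and every F/F liver lay below every W/F liver. The means were 121 ± 10.6, 52.7 ± 5.85 and 38.0 ± 2.32 TPM (SD, n = 4). The difference from W/W was -1.19 in W/F (SE 0.14, adjusted p = 1.84e-08) and -1.64 in F/F (SE 0.14, adjusted p = 1.24e-11), and became -1.84 and -2.48 after rescaling. The F/F livers were lower than W/F by 0.46 on the log2 scale (a difference of -0.46, adjusted p = 0.0209), a call that was lost without any 1 of F/F vehicle replicate 3, W/F vehicle replicate 1 or W/F vehicle replicate 2.

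Under T0901317 the W/W livers held 90.7, 68.5, 95.2 and 90.9 TPM of Ghr, all below the vehicle livers. The W/F livers held 100.1, 83.9, 104 and 110.1 TPM, all above their vehicle group and overlapping the treated W/W livers. The F/F livers held 43.1, 59.3, 66.8 and 48.2 TPM, above their vehicle group and below every treated liver of the other genotypes. The agonist changed Ghr by -0.49 in W/W (adjusted p = 0.0211), 0.90 in W/F (adjusted p = 2.27e-06) and 0.49 in F/F (adjusted p = 0.00934). The W/W call was lost without T0901317 replicate 2 (-0.38) or vehicle replicate 4 (-0.44), and the F/F call without T0901317 replicate 3 (0.38). The response exceeded that of W/W by 1.39 in heterozygotes (SE 0.20, adjusted p = 1.19e-06) and by 0.98 in homozygotes (SE 0.20, adjusted p = 0.00067).

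On chow, Ghr stood at 142, 157, 126 and 146 TPM in W/W livers, 180.1, 153, 149 and 127 in W/F, and 144, 84.6, 91.7 and 91.5 in F/F. In F/F, replicate 1 lay within the control range and the other 3 lay below it. The F/F mean of 103 ± 27.6 TPM (SD, n = 4) differed from W/W by -0.50 (adjusted p = 0.00508). The order of the 9 group means ran from W/F chow at 152 TPM through W/W chow at 143, W/W vehicle at 121, F/F chow at 103, W/F T0901317 at 99.5, W/W T0901317 at 86.3, F/F T0901317 at 54.4 and W/F vehicle at 52.7 to F/F vehicle at 38.0. Of these neighbours, no difference was called between W/F and W/W on chow (0.09, adjusted p = 1) or under T0901317 (0.21, adjusted p = 0.429). F/F chow overlapped W/F T0901317, and F/F T0901317 overlapped W/F vehicle.

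Igf1 encodes insulin-like growth factor 1, the main circulating mediator of growth hormone (ENSMUSG00000020053, chr10:87858265-87937042, plus strand). On vehicle it measured 101, 104, 94.0 and 85.5 TPM in W/W livers, 78.3, 72.1, 66.3 and 71.3 in W/F, and 77.7, 78.6, 57.8 and 64.0 in F/F. Neither mutant group overlapped the controls, and the 2 mutant groups overlapped each other. The difference from W/W was -0.41 in W/F (SE 0.12, adjusted p = 0.00286) and -0.47 in F/F (SE 0.12, adjusted p = 0.000661), a smaller fall than that of Ghr or Igfals on this scale. Under T0901317 it was 67.7, 61.0, 73.9 and 66.4 TPM in W/W livers, 98.7, 91.5, 94.4 and 106 in W/F, and 65.1, 76.2, 73.5 and 65.2 in F/F.

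The treated W/W livers lay below all their vehicle livers for Igf1 (-0.51, adjusted p = 0.0037) and the treated W/F livers above theirs (0.44, adjusted p = 0.00177). In F/F the 2 groups overlapped, with a difference of 0.02 (SE 0.12, adjusted p = 0.921). Set against the W/W response of Igf1, the W/F response was more positive by 0.94 (adjusted p = 2.12e-05). The F/F response was likewise more positive than the W/W response, the difference being 0.53 (adjusted p = 0.0177). On chow, Igf1 was 113, 135, 95.2 and 107 TPM in W/W livers, 139, 134, 112 and 93.9 in W/F, and 115, 131, 97.7 and 98.0 in F/F, and the 3 groups overlapped. Rescaling put F/F below W/W on chow by 0.41 (a difference of -0.41, adjusted p = 0.0434), where the deposited scale gave -0.03.

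Igfals encodes the acid-labile subunit, which holds IGF1 in a long-lived complex in blood (ENSMUSG00000046070, chr17:24865997-24882010, plus strand). On vehicle it measured 111, 133, 139 and 103 TPM in W/W livers, 63.9, 34.3, 42.1 and 65.5 in W/F, and 61.3, 63.4, 37.0 and 41.8 in F/F. All mutant livers were below all controls, and within each mutant group 2 livers stood well above the other 2. The difference from W/W was -1.26 in W/F (SE 0.18, adjusted p = 3.97e-07) and -1.27 in F/F (SE 0.18, adjusted p = 2.17e-07). Under T0901317 it was 68.8, 53.1, 83.4 and 63.6 TPM in W/W livers, 134, 128, 145 and 135 in W/F, and 63.8, 84.9, 76.6 and 58.7 in F/F.

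The treated W/F livers exceeded every vehicle liver of their genotype and every treated liver of the other 2 genotypes for Igfals. The agonist changed it by -0.85 in W/W (adjusted p = 0.00142), 1.43 in W/F (adjusted p = 6.93e-08) and 0.50 in F/F (adjusted p = 0.0322), where treated and vehicle livers overlapped. The F/F call was lost with no filter, with only the groups compared, and without T0901317 replicate 2 or 3 or vehicle replicate 3 or 4. The response exceeded that of W/W by 2.28 in heterozygotes (SE 0.25, adjusted p = 2.12e-08) and by 1.35 in homozygotes (adjusted p = 0.000286). On chow it was 107, 88.4, 92.3 and 117 TPM in W/W livers, 139, 113, 125 and 111 in W/F, and 94.6, 68.2, 70.2 and 70.8 in F/F, with F/F below every W/F liver (-0.68, adjusted p = 0.00308).

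Beside these falls on vehicle, 4 of 6 hepatocyte markers were called lower in F/F than in W/W and 3 of 6 in W/F, while 4 of 6 macrophage markers in F/F and 5 of 6 in W/F were called higher and the others lower. All 6 stellate cell and myofibroblast markers and all 5 bile duct markers were called higher in both. Of 5 endothelial markers, 2 were called lower in each mutant genotype and 1 higher in F/F. Of all tested genes, 69.3% were higher and 7.13% lower in F/F, and 61.6% and 6.83% in W/F. After rescaling, 6 of 6 hepatocyte markers were lower in F/F and 5 of 6 in W/F, and none was higher. Of the 5 endothelial markers, 4 were then lower in F/F and 5 in W/F, with none higher. Of the 6 stellate markers, 5 were higher and 1 lower in F/F, and 6 were higher in W/F. The macrophage and bile duct counts did not change. Of all genes, 31.3% were higher and 27.7% lower in F/F after rescaling, and 27.8% and 25.3% in W/F. Under T0901317 the macrophage sum was 182 to 1306 TPM in W/F and 1322 to 2086 in F/F. The part of these markers in the results on Ghr, Igf1 and Igfals was not tested. Fewer hepatocytes and less RNA per hepatocyte cannot be told apart in bulk liver.

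**Figure D1:**
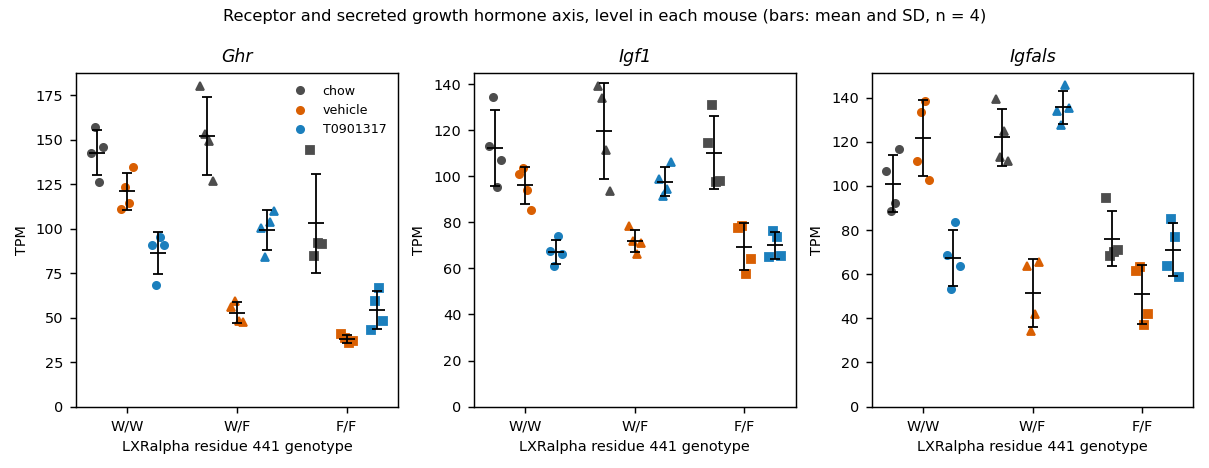
Level of Ghr, Igf1 and Igfals (TPM, linear axis from 0) in each of the 36 livers by genotype and treatment, with the mean and SD of the 4 libraries in each group. On vehicle every W/F and F/F liver lies below every W/W liver for all 3 genes, and under T0901317 the W/F livers rise while the W/W livers fall, Igfals to 136 ± 7.37 and 67.3 ± 12.6 TPM.

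Jak2 encodes the kinase bound to the receptor (ENSMUSG00000024789, chr19:29251828-29313080, plus strand). On vehicle it was 4.68, 6.54, 6.43 and 6.62 TPM in W/W livers, 11.1, 15.3, 16.1 and 10.4 in W/F, and 11.6, 13.7, 13.9 and 16.8 in F/F. Both mutant groups lay above all controls, by 1.00 in W/F (adjusted p = 2.72e-06) and 1.08 in F/F (adjusted p = 4.34e-07), and after rescaling by 0.41 (adjusted p = 0.00832) and 0.31 (adjusted p = 0.0368). T0901317 brought it to 4.33, 8.57, 5.29 and 5.99 TPM in W/F, below all vehicle livers of that genotype (-1.03, adjusted p = 2.2e-06, and -0.49 after rescaling). In W/W the treated livers held 5.76, 5.76, 8.22 and 7.97 TPM and overlapped vehicle (0.16, adjusted p = 0.63). In F/F the agonist difference of -0.41 had an adjusted p of 0.0462, which was lost under a pseudocount of 0.1, no filter, rescaling, the voom fit and the omission of any of 5 libraries.

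Stat5a and Stat5b encode the closely related transcription factors that carry the signal (ENSMUSG00000004043, chr11:100859351-100885169, plus strand, and ENSMUSG00000020919, chr11:100780731-100850724, minus strand). They lie side by side and share sequence: 8.52% of the 50-base stretches of Stat5a and 11.0% of those of Stat5b recur in another annotated gene. Reads that lie wholly within shared sequence cannot be assigned to 1 gene. Stat5b was the more abundant per length in every group, with group means of 18.1 to 34.3 TPM against 4.27 to 11.2 TPM for Stat5a. On vehicle, Stat5a was 3.99, 5.31, 6.28 and 5.65 TPM in W/W livers, 8.95, 9.31, 9.88 and 9.03 in W/F, and 11.0, 12.1, 10.9 and 10.9 in F/F, with no overlap between any pair of genotypes. Stat5b was 14.3, 20.1, 20.98 and 24.3 TPM in W/W livers, 25.9, 33.2, 30.6 and 25.6 in W/F, and 26.5, 34.4, 32.8 and 34.0 in F/F, with both mutants above all controls.

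As deposited, Stat5a exceeded the W/W level by 0.72 in heterozygotes (adjusted p = 1.61e-05) and 0.97 in homozygotes (adjusted p = 8.74e-08), and Stat5b by 0.53 (adjusted p = 0.00197) and 0.67 (adjusted p = 0.000126). These sizes are close to the displacement of the median gene. After rescaling, Stat5a differed by 0.14 (adjusted p = 0.25) and 0.21 (adjusted p = 0.082), and Stat5b turned to -0.11 (adjusted p = 0.45) and -0.16 (adjusted p = 0.24), so neither gene was called. T0901317 lowered Stat5a in W/F by 0.86 (a difference of -0.86, adjusted p = 1.44e-06), and the fall was still called after rescaling (-0.34, adjusted p = 0.0069). The fall of Stat5b in W/F, -0.63 as deposited (adjusted p = 0.000373), was -0.05 after rescaling (adjusted p = 0.73).

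**Figure D2:**
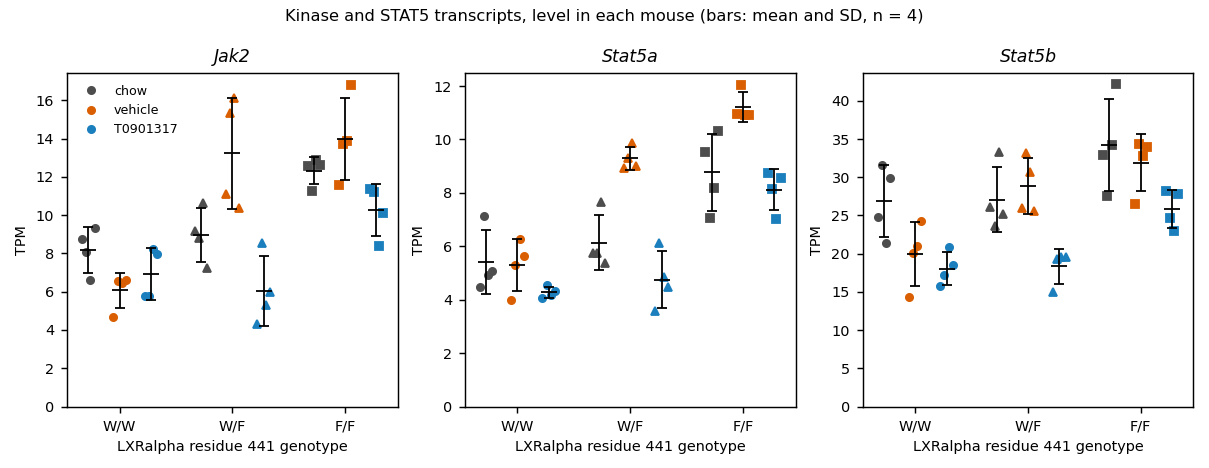
Level of Jak2, Stat5a and Stat5b (TPM, linear axis from 0) in each liver, with the mean and SD of 4 libraries per group. Vehicle livers of W/F and F/F lie above all W/W vehicle livers for the 3 genes as deposited, and the W/F livers under T0901317 lie below their vehicle group.

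**Figure D3:**
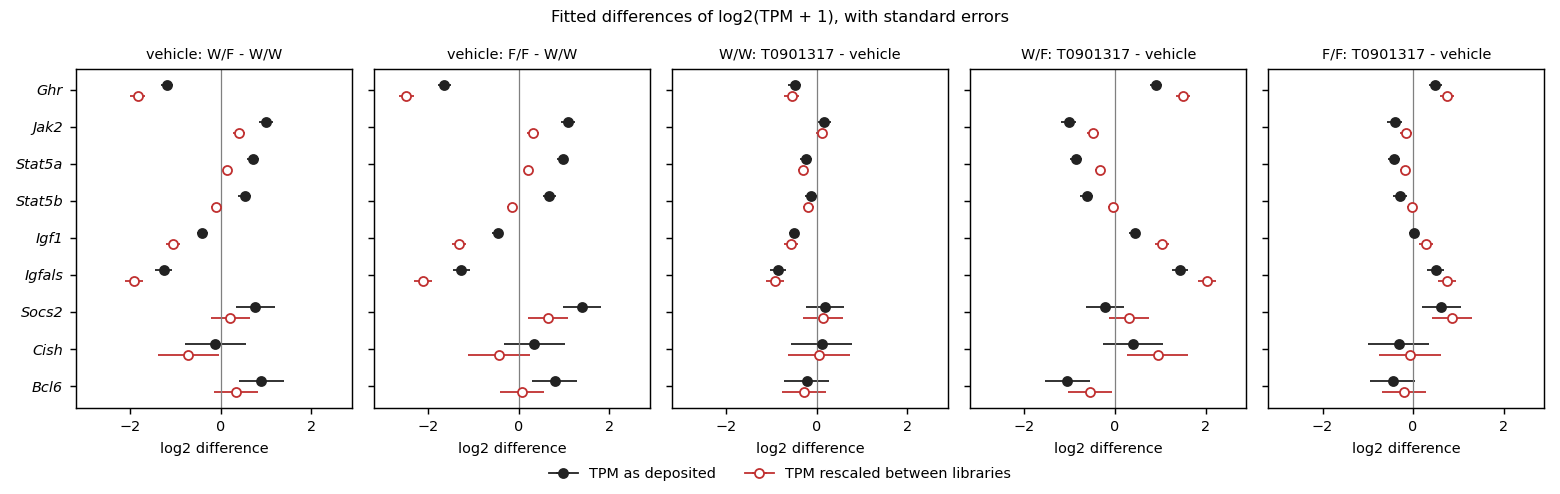
Fitted differences of log2(TPM + 1) with their standard errors for the 9 tested members in 5 comparisons, on deposited TPM (filled black) and on TPM rescaled to a fixed median gene (open red). Ghr, Igf1 and Igfals keep their direction on both scales in every panel, whereas Stat5b crosses 0 in both vehicle comparisons, to -0.11 and -0.16.

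Socs2 encodes a suppressor of cytokine signalling that STAT5 induces and that marks the receptor complex for degradation (ENSMUSG00000020027, chr10:95385362-95417180, minus strand). Its sequence shares 4.58% of 50-base stretches with other genes. On vehicle it was 3.19, 12.6, 5.38 and 1.26 TPM in W/W livers, 4.84, 11.3, 8.09 and 9.52 in W/F, and 11.5, 13.4, 9.24 and 20.3 in F/F, and the W/W livers spread across most of this range. Under T0901317 it was 6.57, 3.55, 5.34 and 5.14 TPM in W/W livers, 5.91, 4.01, 7.77 and 11.3 in W/F, and 31.5, 21.8, 16.6 and 16.1 in F/F, where every F/F liver was above every other treated liver. F/F exceeded W/W by 1.84 under T0901317 (SE 0.43, adjusted p = 0.000451), by 1.40 on vehicle (adjusted p = 0.00407) and by 1.30 on chow (adjusted p = 0.0137).

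After rescaling, the F/F excess of Socs2 over W/W was still called under T0901317 (1.37, adjusted p = 0.0106) and not on vehicle (0.65, adjusted p = 0.21) or chow (0.98, adjusted p = 0.0929). On chow its level was 4.03, 5.03, 1.75 and 7.93 TPM in W/W livers, 2.54, 5.71, 2.93 and 0.685 in W/F, and 6.42, 17.6, 12.5 and 13.9 in F/F. F/F exceeded W/F there by 1.86 (adjusted p = 0.000928, and 1.58 after rescaling, adjusted p = 0.00626) with no overlap as deposited. In no genotype did T0901317 change Socs2 by a called amount, the nearest being 0.62 in F/F (adjusted p = 0.255).

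Cish encodes the feedback protein CIS, a quickly induced STAT5 target (ENSMUSG00000032578, chr9:107296026-107302784, plus strand), and Bcl6 a repressor that STAT5 is known to switch off (ENSMUSG00000022508, chr16:23965052-23988852, minus strand). Cish shares 9.35% of its 50-base stretches with other genes and overlaps exons of Gm17040 and Gm17041 on the other strand, and Bcl6 overlaps Gm37419 by 21 bases. Reads from such stretches cannot be assigned, since strand use in the counting is not given in the sources used here. STAT5 dimers recognise the palindrome TTCNNNGAA, in which N is any base and which reads the same on both strands, and its matches in the RefSeq promoter windows of the members (250 bases before to 50 after an annotated start, GRCm38.p6) are shown because these genes are textbook targets of STAT5. Windows were given for 9 of the 10 members, 16 in all, and 5 of the 16 held a match, beside 8.3% of all 32851 windows. The 30-base stretches around the matches are printed 5′ to 3′ on the gene's strand, with the palindrome in capitals.
Cish, chr9:107296654-107296683, plus strand, positions -5 to 25: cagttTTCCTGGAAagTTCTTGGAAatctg
Bcl6, chr16:23981432-23981461, minus strand, positions -178 to -149: aggccgcggcTTCCTGGAAagttacttctc
Bcl6, chr16:23981386-23981415, minus strand, positions -132 to -103: ggcaggagtgTTCTGTGAAatccttagagc
Bcl6, chr16:23981352-23981381, minus strand, positions -98 to -69: atcgactacgTTCCGGGAAtgagagggctg
Bcl6, chr16:23988951-23988980, minus strand, positions -128 to -99: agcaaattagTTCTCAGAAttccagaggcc
Igfals, chr17:24877598-24877627, plus strand, positions -246 to -217: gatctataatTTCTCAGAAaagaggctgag
Igfals, chr17:24878163-24878192, plus strand, positions -68 to -39: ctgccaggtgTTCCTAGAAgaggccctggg

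The Cish window held 2 matches that start at positions 1 and 12, where position 1 is the annotated start, and 1 Bcl6 window held 3, at -168, -122 and -88. Of all 32851 windows, 0.457% held 2 or more matches and 0.0335% held 3 or more. The first Bcl6 palindrome and the first Cish palindrome are the same 9 letters, TTCCTGGAA. No match was found in the windows of Ghr, Jak2, Stat5a, Stat5b, Igf1 and Cux2, which says only that these letters are not in those windows. A match describes the sequence and is not a measured binding site.

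Cish and Bcl6 varied widely from mouse to mouse within the chow groups, and the mice high in one were low in the other. On chow, Cish was 15.4, 0.924, 0.469 and 11.3 TPM in W/W replicates 1 to 4, 1.03, 11.0, 1.06 and 1.63 in W/F, and 1.52, 17.8, 16.96 and 11.0 in F/F. Bcl6 in the same mice was 6.38, 28.8, 24.9 and 4.99 TPM in W/W livers, 24.4, 12.6, 32.9 and 21.2 in W/F, and 33.8, 2.81, 4.18 and 10.2 in F/F. The 6 chow mice with Cish of 1.63 TPM or less had Bcl6 of 21.2 TPM or more, and the other 6 had Cish of 11.0 to 17.8 TPM and Bcl6 of 2.81 to 12.6 TPM. Of the 24 mice on the MASH diet, 1 had Cish under 5 TPM, W/F vehicle replicate 1 at 2.97 TPM, and its Bcl6 was 21.2 TPM, whereas Bcl6 in the other 23 was 2.16 to 8.68 TPM. The 7 mice with low Cish belonged to all 3 genotypes, and their Socs2 was 0.685 to 6.42 TPM, overlapping the 1.26 to 31.5 TPM of the other 29.

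**Figure D4:**
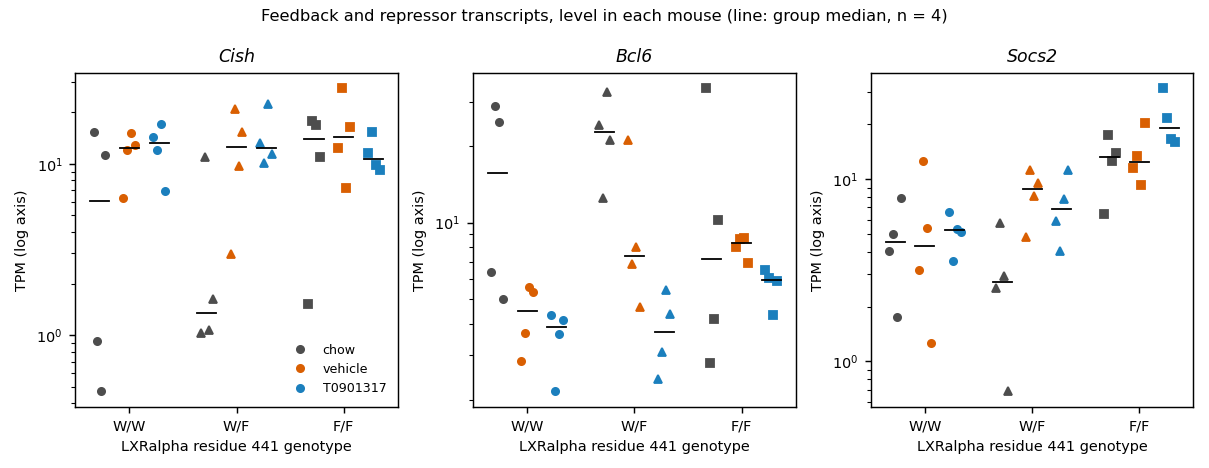
Level of Cish, Bcl6 and Socs2 (TPM, log axis) in each liver, with a line at the median of the 4 libraries of each group. The chow groups hold mice on both sides of a gap in Cish, with 6 of 12 at 1.63 TPM or less, and Socs2 is highest in F/F livers under T0901317, at 16.1 to 31.5 TPM.

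**Figure D5:**
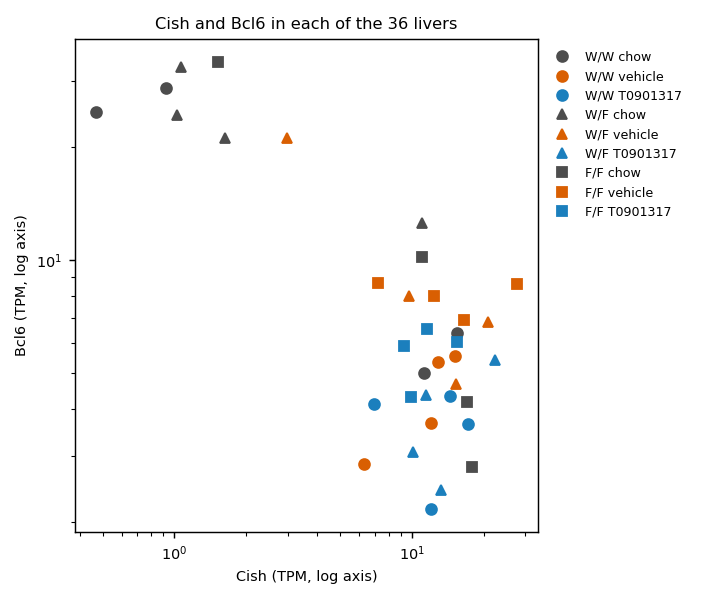
Bcl6 (TPM, log axis) against Cish (TPM, log axis) in each of the 36 livers, with genotype as the symbol and treatment as the colour. The 7 livers with Cish under 5 TPM all have Bcl6 of 21.2 TPM or more, and the other 29 have Bcl6 of 2.16 to 12.6 TPM.

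With this spread, group differences of Cish and Bcl6 were poorly determined. On vehicle Cish was 6.30, 12.0, 15.2 and 12.9 TPM in W/W livers, 2.97, 20.9, 9.73 and 15.4 in W/F, and 12.4, 27.6, 7.21 and 16.5 in F/F, and the 3 groups overlapped. Its 1 called difference was between vehicle and chow in W/F (1.71, SE 0.67, adjusted p = 0.0283), with overlapping groups. That call was lost with no filter, rescaling (1.32, adjusted p = 0.103), array weights, the voom fit and only the groups compared, and on omission of W/F chow replicate 1, 3 or 4 or W/F vehicle replicate 2 or 4.

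Bcl6 on vehicle was 2.85, 3.67, 5.56 and 5.34 TPM in W/W livers, 21.2, 6.85, 8.0 and 4.66 in W/F, and 8.04, 8.63, 8.68 and 6.92 in F/F. Every F/F liver lay above every W/W liver as deposited (0.79, SE 0.50, adjusted p = 0.15). After rescaling, Bcl6 differed by 0.06 there (adjusted p = 0.92), and it overlapped between F/F and W/W. It was lower on the diet than on chow in W/F (-1.22, SE 0.50, adjusted p = 0.0348, and -1.67 after rescaling), with overlap and with the call lost with no filter or on omission of any of 6 libraries: W/F chow replicates 1, 3 and 4 and W/F vehicle replicates 2, 3 and 4. On chow it was lower in F/F than in W/F (-1.27, adjusted p = 0.041), again with overlap and lost with no filter, with only the groups compared, or on omission of F/F replicate 2, 3 or 4 or W/F replicate 1, 3 or 4. Under T0901317 Bcl6 was 4.33, 2.16, 3.65 and 4.13 TPM in W/W livers, 2.43, 3.08, 5.43 and 4.36 in W/F, and 6.53, 6.05, 4.31 and 5.88 in F/F, and Cish was 14.4, 12.0, 17.1 and 6.95 TPM in W/W livers, 13.3, 10.1, 22.2 and 11.4 in W/F, and 11.5, 15.4, 9.90 and 9.27 in F/F. Neither gene changed by a called amount with the agonist in any genotype.

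Cux2, the repressor found mainly in female liver (ENSMUSG00000042589, chr5:121856366-122050102, minus strand), was the lowest of the 10 genes in every group and reached 1 TPM in no library, so it entered no test. Its values ran from 0.0487 TPM in W/W vehicle replicate 4 to 0.767 TPM in F/F T0901317 replicate 1, which correspond to 5 to 106 recovered reads. Group means were 0.083 ± 0.0445 TPM in W/W vehicle livers, 0.246 ± 0.229 in W/F and 0.451 ± 0.243 in F/F (SD, n = 4). Every F/F vehicle liver (0.564, 0.263, 0.237 and 0.739 TPM) lay above every W/W vehicle liver (0.143, 0.0502, 0.0899 and 0.0487 TPM), at a depth of few reads. In rescaled TPM these groups overlapped, at 0.397, 0.179, 0.168 and 0.507 in F/F and 0.207, 0.0595, 0.112 and 0.0573 in W/W. Of all tested genes, 69.3% were higher in F/F than in W/W on vehicle as deposited.

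The male-biased genes that pulsed growth hormone is known to sustain also fell in the mutants on vehicle. Of 18 such genes, 16 were lower in F/F and 14 in W/F than in W/W on vehicle and none was higher, where 7.13% and 6.83% of all tested genes were lower. The medians were -2.45 and -2.25 beside 0.70 and 0.52 over all genes, and 17 and 16 were lower after rescaling, where 27.7% and 25.3% of all genes were. T0901317 raised 14 of the 18 in W/F and 6 in F/F, with none lower, beside 6.59% and 3.95% of all genes higher. In W/W it lowered 9 and raised 1, beside 2.91% of all genes lower and 7.87% higher. Mup3, a major urinary protein, averaged 22853 TPM in W/W vehicle livers, 539 in W/F and 102 in F/F, and 5907, 13918 and 1186 TPM under T0901317. Hsd3b5, a male-specific steroid dehydrogenase, averaged 266 ± 41.8 TPM in W/W vehicle livers, 0.421 ± 0.182 in W/F and 0.719 ± 0.0389 in F/F (SD, n = 4). Under the agonist Hsd3b5 was 54.0 ± 34.1 TPM in W/W livers, 126 ± 125 in W/F and 0.265 ± 0.103 in F/F, so that it was higher than on vehicle in W/F (5.37, adjusted p = 6.02e-06) and not in F/F (-0.45, adjusted p = 0.724). Slco1a1, an organic anion transporter, fell from 174 ± 37.3 TPM in W/W to 3.13 ± 1.36 in W/F and 3.18 ± 1.08 in F/F on vehicle. On chow 8 of the 18 were lower in F/F than in W/W and none in W/F, beside 3.65% and 0.288% of all genes. Members of the urinary protein, serpin and cytochrome families have near-identical copies, so the split of reads among them is uncertain.

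Of 20 female-biased genes 15 were tested, and 9 were higher and 1 lower in W/F than in W/W on vehicle (median 0.75, beside 0.52 over all genes), where 61.6% of all genes were higher. In F/F, 6 were higher and 1 lower (median 0.39, beside 0.70), where 69.3% of all genes were higher, so neither count of rises exceeds the background share. After rescaling, 8 and 6 were higher and 1 lower in each, beside 27.8% and 31.3% of all genes higher. Atp6v0d2, a subunit of the vacuolar proton pump that macrophages also express, averaged 1.56 ± 0.823 TPM in W/W livers, 88.4 ± 26.5 in W/F and 74.8 ± 22.2 in F/F (SD, n = 4), beside the macrophage sums given above; the part of those cells was not tested. Cyp2a4, a steroid hydroxylase of female liver, averaged 1.47 ± 0.577 TPM in W/W vehicle livers, 84.3 ± 44.3 in W/F and 11.0 ± 4.15 in F/F. With T0901317, Cyp2a4 averaged 98.2 ± 52.5 TPM in W/W (5.22, adjusted p = 9.78e-09), 6.26 ± 4.17 in W/F (-3.50, adjusted p = 6.6e-07) and 39.2 ± 15 in F/F (1.76, adjusted p = 0.00876), so F/F differed from W/F in its direction. Of the 15 tested genes, the agonist raised 4 and lowered 0 in W/W, beside 7.87% and 2.91% of all genes. It raised 2 and lowered 7 in W/F, beside 6.59% and 59.3%, and raised 4 and lowered 1 in F/F, beside 3.95% and 31.2%. After rescaling these counts were 5 and 0 in W/W, 2 and 5 in W/F, and 3 and 1 in F/F. The rescaled shares of all genes were 8.05% and 5.52%, 23.5% and 27.3%, and 8.28% and 8.12%.

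Of the 16 genes that act next to the receptor (SOCS proteins, phosphatases, SH2B adaptors, Grb10, Btrc and Sirpa), all 16 were higher in F/F (median 1.09, beside 0.70 over all genes) and 15 in W/F (median 0.90, beside 0.52) than in W/W on vehicle, where 69.3% and 61.6% of all genes were higher. After rescaling 9 and 8 were higher and 1 lower in each, beside 31.3% and 27.8% of all genes higher. Sirpa and the phosphatase gene Ptpn6 are also expressed by myeloid cells, and the macrophage markers summed to 229 to 386 TPM in W/W vehicle livers against 2833 to 3622 in W/F and 3110 to 4049 in F/F; their part in the list was not tested. Socs3, an inhibitor of JAK kinases, averaged 10.6 ± 6.39 TPM in W/W livers, 29.9 ± 10.4 in W/F and 36.1 ± 8.93 in F/F (SD, n = 4), with 1.78 in F/F (adjusted p = 0.000218, and 0.97 after rescaling). Sirpa, a receptor of myeloid cells that growth hormone signalling can phosphorylate, averaged 7.36 ± 3.31, 149 ± 26.1 and 149 ± 7.91 TPM, and Ptpn1, a phosphatase of JAK2, 10.7 ± 1.12, 34.2 ± 4.46 and 36.8 ± 2.69 TPM. T0901317 lowered 15 of the 16 in W/F, 10 in F/F and none in W/W, beside 59.3%, 31.2% and 2.91% of all genes. After rescaling 8, 1 and 0 were lower, beside 27.3%, 8.12% and 5.52%.

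In the insulin-like growth factor axis, 11 of 15 listed genes were tested, and on vehicle 7 were higher in F/F (median 0.94, beside 0.70 over all genes) and 6 in W/F (median 0.48, beside 0.52) than in W/W, with none lower. Both counts are below the 69.3% and 61.6% of all genes that were higher. After rescaling, 5 were higher and 3 lower in F/F, beside 31.3% and 27.7% of all genes, and 4 higher and 4 lower in W/F, beside 27.8% and 25.3%. Igfbp1, an IGF binding protein of liver, averaged 44.2 ± 24.0 TPM in W/W vehicle livers, 221 ± 93.4 in W/F and 378 ± 296 in F/F (SD, n = 4), and the difference in F/F was 2.92 (adjusted p = 9.56e-06, and 2.07 after rescaling). Under T0901317 it averaged 15.2 ± 4.06 TPM in W/F, lower than on vehicle (-3.69, adjusted p = 4.83e-07), and 223 ± 49.2 in F/F (-0.51, adjusted p = 0.459). Igfbp7, a related secreted protein, averaged 114 ± 10.7, 437 ± 114 and 907 ± 65.3 TPM on vehicle in W/W, W/F and F/F.

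A list of other JAK-STAT receptors and factors, with the growth factor receptor genes Egfr and Erbb3 added, had 13 tested genes. Of these, 8 were higher and 3 lower in F/F than in W/W on vehicle (median 0.88), beside 69.3% and 7.13% of all genes. After rescaling 2 were higher and 4 lower, beside 31.3% and 27.7%. Prlr, the prolactin receptor and closest relative of Ghr on the list, averaged 6.84 ± 2.13 TPM in W/W and 2.56 ± 0.515 in F/F (-1.11, adjusted p = 0.00036, and -1.76 after rescaling). Stat3 was higher as deposited (1.14, adjusted p = 6.3e-05) and not after rescaling (0.31). Of 16 transcription factors of sex-biased and growth hormone dependent expression, 6 were higher and 4 lower in F/F on vehicle as deposited (median 0.17), where the same 69.3% and 7.13% of all genes were. After rescaling 0 were higher and 9 lower, beside 31.3% and 27.7% of all genes. The largest falls as deposited were Nr0b2 (-1.26, adjusted p = 0.00295), a corepressor of nuclear receptors, and Klf15, a factor of fasting metabolism.

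For each member the genes with the most similar pattern were sought over the 36 livers among 9225 genes with a mean of at least 5 TPM, by Pearson's r of log2(TPM + 1), given as a description since all points share libraries and scaling. The closest to Ghr were Il1rap (0.965), Ttc39c (0.964) and Nit2 (0.963). Igf1 was closest to Gm8941 (0.919) and Serpina1e (0.908), and Igfals to Hagh (0.917) and Cyp2d10 (0.906). Jak2 was closest to Slk (0.957), Stat5a to Rab32 (0.952) and Stat5b to Smc5 (0.932). The remaining members had weaker neighbours: Cish was closest to Foxa2 (0.876), Gm7652 (0.718) and Foxa1 (0.699), Socs2 to Cirbp (0.801), Bcl6 to Mfhas1 (0.777) and Cux2 to Htatsf1 (0.779). Foxa1 and Foxa2 encode pioneer factors of the liver.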

How the data were processed

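PolyA RNA of 36 mouse livers was measured by sequencing, 4 libraries in each of 9 groups taken from the labels. The authors deposited 1 table of TPM, per the file headers, and each column sums to 1e+06; how TPM were computed, the annotation and the strand setting are not given in the sources used here. Per the submitters' processing notes, Trimmomatic 0.36, STAR 2.5.2b, featureCounts, Subread 1.5.2 and the build GRCm38 (mm10) were used. TPM correct for gene length and library total, not for a change in composition. Depth was recovered from the steps between low values with GENCODE M21 exon lengths: 93.7% to 95.6% of values under 20 reads lay within 0.1 of a whole read, at 18.1 to 35.8 M reads per library (M, 1e+06). Of 49315 genes, 49056 matched M21 and 259 did not; M21 and the files share the build, so coordinates are from M21.

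Tests used log2(TPM + 1) of the 16638 genes that reached 1 TPM in 4 or more libraries. limma 3.58.1 (R 4.3.3) fitted 1 mean per group over all 36 libraries with a mean-variance trend, and 19 two-sided contrasts (15 of 2 groups, 4 differences of responses) were adjusted by Benjamini-Hochberg over all tested genes, with a threshold of 0.05. Tables and figures used Python 3.11.15, pandas 2.3.3 and matplotlib 3.10.9. On data simulated for T0901317 against vehicle in W/W, the fit recovered 182 of 200 genes changed 2-fold among 16638, with 11 false calls. The changed genes were drawn above about 5 TPM, as many up as down, with independent normal noise. The simulation therefore does not cover genes of lower level or comparisons in which the median gene is displaced. Rescaled TPM were divided by median-of-ratios factors over 13950 genes. Other alternatives were a 5 TPM filter, no filter, a pseudocount of 0.1, the replicate number as a block, array weights, only the groups compared, each library left out, and, chosen after seeing the data, voom on recovered reads. All members are named; genes of the context lists were eligible when called, with non-overlapping groups and 5 TPM or more on average in the group where they are higher, and the 3 largest rises and falls came first. The members and lists were chosen with earlier results of these data known. Read numbers carry counting error alone, as no molecular identifiers separate PCR copies. The labels give no date or sequencing batch.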

Additional observations from a re-analysis of the deposited data

Results flagged for a closer look

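Of 90 groups of 4 libraries (10 genes in 9 groups), 9 held a library that stood apart by Dixon's criterion, which chance alone exceeds in about 1 of 20 groups. F/F chow replicate 1 was the highest of its group for both Ghr (144 TPM, the others at most 91.7) and Igfals (94.6 TPM, the others at most 70.8), and this mouse is also the F/F chow mouse with low Cish and high Bcl6. W/F chow replicate 2 had the highest Cish of its group (11.0 TPM, the others at most 1.63). W/W T0901317 replicate 2 had the lowest Ghr (68.5 TPM), W/W vehicle replicate 1 the lowest Jak2 (4.68 TPM) and W/F T0901317 replicate 1 the lowest Stat5b (14.9 TPM). Stat5a was high in F/F vehicle replicate 2 (12.1 TPM) and W/F chow replicate 3 (7.65 TPM), and Cux2 was high in W/F vehicle replicate 3 (0.588 TPM).

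Of 36 tested differences of responses (9 genes in 4 contrasts), 18 were called. Among all 16638 tested genes, the T0901317 contrasts called 9726 (W/F) and 5065 (F/F), and the diet contrasts 9086 (W/F) and 7654 (F/F). The number of calls alone therefore does not set the members apart from all genes. After rescaling, 4, 3, 3 and 3 members were called, in that order, beside 7296, 2904, 6661 and 4469 of all genes. Ghr, Igf1 and Igfals went the rarer way in each contrast, shared by 3.29% to 5.27% of all genes as deposited. The T0901317 response in W/F differed from that in W/W by 2.28 for Igfals, 1.39 for Ghr and 0.94 for Igf1, and by -1.19 for Jak2, -0.61 for Stat5a and -0.51 for Stat5b on the log2 scale. In F/F it differed from W/W by 1.35 for Igfals, 0.98 for Ghr and 0.53 for Igf1. The diet response in W/F differed from that in W/W by -1.54 for Igfals, -1.27 for Ghr and -0.49 for Igf1, and by 0.88 for Jak2, 0.56 for Stat5a and 0.52 for Stat5b. In F/F the diet response differed from W/W by -1.15 for Ghr, -0.86 for Igfals and -0.44 for Igf1, where the Igf1 call was lost with no filter, with only the groups compared and without any of 8 libraries (-0.36 to -0.42).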

How the results depend on the processing

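The number of members called stayed within 1.5 times of the reported count in 141 of 152 settings other than omitted libraries and in 173 of 184 omissions. Rescaled TPM gave 2 members rather than 4 for T0901317 in F/F, 5 rather than 8 for diet in W/F, 4 rather than 7 for homozygotes against controls on vehicle, 3 rather than 7 for F/F against W/F under T0901317, and 3 rather than 6 for the difference of diet response of W/F. With no filter, T0901317 in F/F called 2. For diet in W/W, 1 member was called rather than 0 with a pseudocount of 0.1, a filter of 5 TPM, the replicate block or array weights (Stat5b, -0.42 and adjusted p = 0.0336 with the block). With only the groups compared, F/F against W/F on vehicle called 2 rather than 1. Omitting single libraries gave 0 to 4 for T0901317 in F/F (0 without F/F T0901317 replicate 3), 0 to 1 for diet in W/W, 3 to 7 for homozygotes against controls on chow (7 without F/F chow replicate 1), and 0 to 1 for F/F against W/F on vehicle. Among differences called on at least 1 of the scales, rescaling turned the sign of Stat5b in 6 comparisons: -0.39 for diet in W/F, -0.11 and -0.16 for heterozygotes and homozygotes against controls on vehicle, -0.029 for F/F against W/F under T0901317, 0.14 for the difference of T0901317 response and -0.087 for that of diet response of W/F. It also turned Igf1 to -0.46 for F/F against W/W under T0901317. A further 20 signs turned among differences called on neither scale, 6 of them of Stat5b. The rescaling holds the median gene fixed, and which scale is nearer to RNA per cell was not tested.

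The replicate numbers did not pair the libraries: deviations of same-numbered libraries correlated at -0.17 to 0.30 (median 0.013), and 11 of 36 libraries correlated best with their own number. The block changed no other count by over 1.5 times. Depth limits Cux2, at 5 to 106 reads, and the 4 libraries per group limit Cish and Bcl6.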
